A study of Mus musculus with 9 samples.

Results

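The genes described here encode potassium, sodium and calcium channels, the hyperpolarization-activated HCN channels, TRP channels and the calcium release channels of internal stores, together with their auxiliary subunits. They were taken by symbol from the authors' 2 tables of differentially expressed genes in mouse thalamus. The tables hold 4277 different genes, of which 46 were such channel genes. All 46 stood in the table for stroke against sham and 6 of them also in the table for mmpp against stroke. RefSeq annotates 164 protein-coding genes of these families, so 118 were in neither table.

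The study sequenced libraries made from total RNA of thalamus, taken from wild-type C57/BL mice on day 7 after photothrombotic surgery. In this surgery a light-activated dye clots vessels. There were 3 samples each in the groups sham, stroke and mmpp. The series concerns injection of a melanin nanozyme (a nanoparticle that acts like an enzyme), and its labels neither spell out mmpp nor say what the sham and stroke groups were given. Whether each sample came from 1 animal or from several is not stated either, and the spread behind the authors' p-values may be partly technical.

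The authors' tables give 1 mean per group and gene in TPM, a transcript abundance scaled for gene length and library size, which allows levels to be compared between genes. No value per library was analysed here, and the depth of the libraries and the error of each mean are unknown. A table lists a gene only where the authors' p-value was under 0.05 and the absolute log2 fold change at least 1. Every member therefore differs between groups by construction, and that it does so is not a finding. For a channel gene outside the tables it is not known whether it missed a limit or was never tested. Below, rose and fell are kept for an authors' q-value under 0.05, and other members are called listed higher or lower.

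Ion channels set the electrical behaviour of cells. In thalamic relay neurons, leak potassium channels hold the resting potential, sodium channels of the axon fire the spike, voltage-gated potassium channels end it, and T-type calcium channels with HCN channels drive rhythmic bursts. Microglia and macrophages carry few voltage-gated channels and rely on potassium channels that keep the membrane negative and so favour calcium entry during activation.

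Among the listed members, all those of a list of neuronal channel genes were lower after stroke and all those of a list of immune cell channel genes were higher. Both lists were written with earlier results of these data known. In the authors' deposited table, 39 members were listed lower and 7 higher in stroke, that is 84.8% lower, while of all 4071 listed genes 39.4% were lower and 60.6% higher. Of the 39 members, 11 fell, a share of 28.2%, against 43.8% of all genes listed lower per the authors' deposited table. Of the 7 higher members, 6 rose, and 81.5% of all genes listed higher did so per the authors' deposited table. The 46 members are 28.0% of the annotated channel genes, and 19.1% of all 20804 genes the authors adjusted for were listed with a q-value below 1 (96 more were listed with a q of 1), but how many channel genes they tested is not known. In both directions together 17 of the 46 passed, and 66.6% of all listed genes did so. Just inside the q limit stood Kcnip4 (q = 0.0489) and just outside it Kcnk1 (q = 0.0631) per the authors' deposited table.

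The lower members lay in a narrow range of change, whose upper edge is set by the listing limit of an absolute log2 fold change of 1. The median log2 fold change of the lower members was -1.38 per the authors' deposited table, close to the -1.31 of all 1602 genes listed lower. The quartiles were -1.55 and -1.27 for the lower members and -1.59 and -1.14 for all genes listed lower. Apart from 4 genes every lower member lay between -1.05 and -1.67. Together they held 1528 TPM in sham and 598.1 in stroke, 39.1% of the sham level, and all genes listed lower held 40.7% by the same sum over the authors' deposited table. General neuron markers listed lower, Snap25, Syt1, Eno2 and Tubb3 of 6 in that list, went from 2905 to 1176 TPM in sum, or 40.5%, while Map2 and Rbfox3 were not listed per the authors' deposited table. Relay neuron markers listed lower, Slc17a6, Tcf7l2, Rora and Gbx2 of 6, went from 186.5 to 62.4 TPM per the authors' deposited table, or 33.5%, while Lef1 and Prkcd were not listed. Of 6 markers of thalamic reticular neurons, Gad1, Isl1 and Pvalb were listed lower, from 476.1 to 182.4 TPM in sum, while Ecel1 rose from 28.5 to 85.1 TPM (q = 0.000164), and Gad2 and Sst were not listed per the authors' deposited table. All 4 midbrain dopamine neuron markers were listed lower, from 89.7 to 25.8 TPM in sum. Among them Slc6a3, the dopamine transporter of these neurons, fell 83.3-fold from 18.8 to 0.225 TPM (q = 2.2e-19) per the authors' deposited table. Of 10 cerebellar markers, En2 and Zic1 were listed lower, from 45.3 to 21.3 TPM, per the authors' deposited table. The oligodendrocyte markers Mbp, Mog and Mag were not listed. In bulk tissue, fewer cells of a type and less RNA per cell cannot be told apart, and the part of neuron and neighbouring tissue content in the lower channel levels was not tested. The gain of TPM by genes listed higher alone puts a log2 shift of -0.28 on every other gene, which was not removed from the values given.

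**Figure D1:**
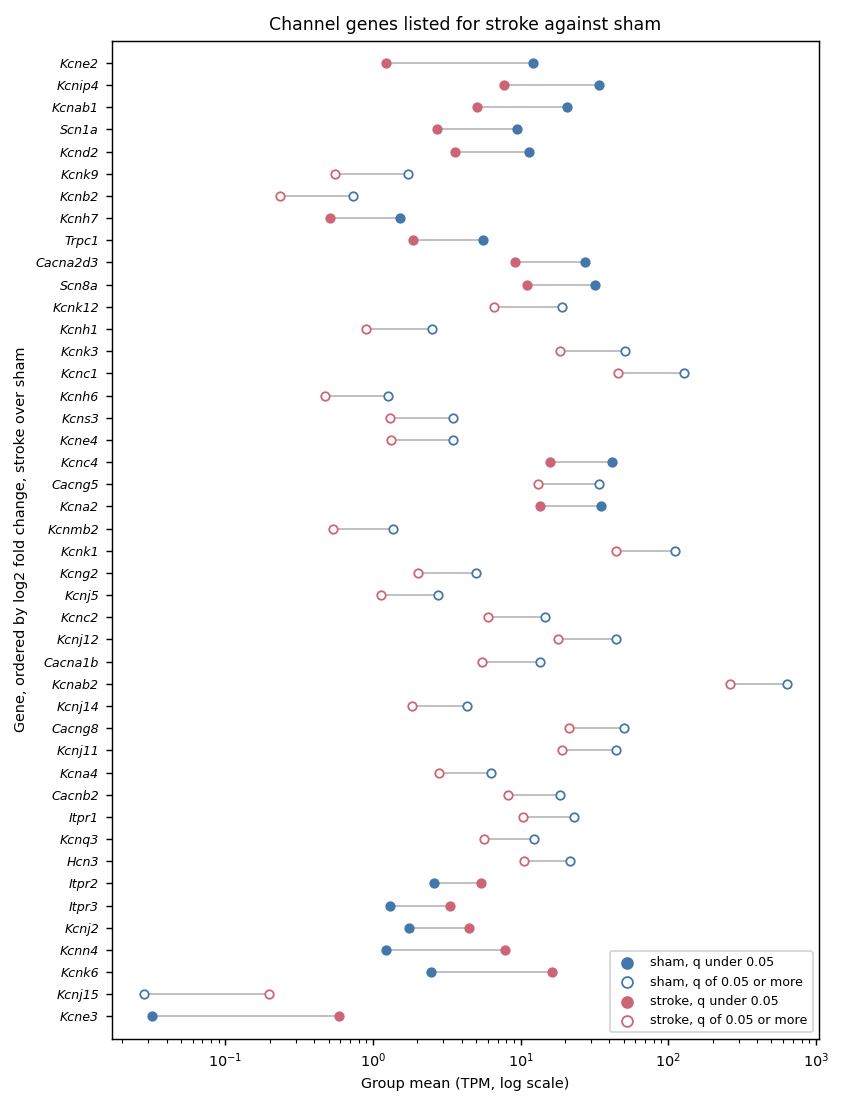
Group mean of 44 of the 46 channel genes in sham (blue) and stroke (red), in TPM on a log axis, ordered by log2 fold change; filled points have an authors' q-value under 0.05. The 37 lower genes plotted are shifted left by similar distances over a wide range of levels, apart from Kcne2 at the top, and the 7 higher genes all start from a low sham level of at most 2.59 TPM.

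Voltage-gated potassium channels of the Kv families, which repolarize neurons after a spike, formed the largest group. Of 17 genes of the main pore-forming families, 8 were listed lower and none higher, and 3 fell, per the authors' deposited table. Kcnd2, the pore subunit of the A-type current of dendrites, had 11.5 TPM in sham and 3.60 in stroke per the authors' deposited table, a 3.18-fold fall (log2 fold change -1.67, q = 0.000988). Kcnc4, of the fast-gating Kv channels, fell from 41.4 to 15.7 TPM (q = 0.00401), and Kcna2, which sits beside the nodes of myelinated axons, fell from 35.3 to 13.6 TPM (q = 0.0118) per the authors' deposited table. These 3 were reduced to between 31.4% and 38.5% of their sham level per the authors' deposited table. The gene with the highest level of the group was Kcnc1, a channel of fast-spiking neurons, with 127.4 TPM in sham and 45.9 in stroke per the authors' deposited table, but its q was 0.164. Its relative Kcnc2 had 14.7 and 5.97 TPM (q = 0.127) per the authors' deposited table. Kcna4 and Kcnb2 were also listed lower, from 6.30 and 0.728 TPM in sham. Among the 10 electrically silent subunits, which alter Kv channels but form none alone, Kcns3 (3.48 to 1.31 TPM, q = 0.121) and Kcng2 (4.99 to 2.00 TPM, q = 0.181) were listed lower per the authors' deposited table.

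Auxiliary subunits of potassium channels held the lowest log2 fold changes among neuronal members. Kcnip4, a calcium-binding subunit of the Kcnd channels, had 33.7 TPM in sham and 7.78 in stroke per the authors' deposited table, 4.33-fold lower (q = 0.0489). Kcnab1, a cytoplasmic beta subunit that speeds the inactivation of Kcna channels, had 20.6 and 5.09 TPM per the authors' deposited table, 4.05-fold lower (q = 0.000118). The second beta subunit gene, Kcnab2, was by far the most abundant member, with 635.0 TPM in sham, 41.6% of the sum over lower members, and 260.3 in stroke per the authors' deposited table. Its q was 0.132, so the sum is dominated by a gene that did not pass. Kcnmb2, a subunit of the large-conductance calcium-activated channel, was listed lower from 1.36 to 0.532 TPM (q = 0.0748) per the authors' deposited table.

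Of the 13 genes of the KCNQ and EAG families, 4 were listed lower and 1 fell. Kcnh7 had 1.54 TPM in sham and 0.508 in stroke (q = 0.0254) per the authors' deposited table. Kcnq3, a subunit of the M current that restrains repetitive firing, had the highest level of the 4, with 12.3 and 5.68 TPM (q = 0.165) per the authors' deposited table. Kcnh1 and Kcnh6 were low in both groups, with at most 2.53 TPM per the authors' deposited table.

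Leak and inwardly rectifying potassium channels were listed lower without passing the q limit, apart from Kcnk6, Kcnj2 and Kcnj15, which were higher and are described further on. Kcnk3 and Kcnk9 encode acid-sensitive leak channels that set the resting potential of relay neurons. Kcnk3 had 51.2 TPM in sham and 18.4 in stroke (q = 0.0738), and Kcnk9 had 1.74 and 0.554 TPM (q = 0.166), per the authors' deposited table. Kcnk1 was more abundant, with 112.0 and 44.0 TPM (q = 0.0631), and Kcnk12 had 18.9 and 6.65 TPM (q = 0.0740), per the authors' deposited table. Among inward rectifiers, Kcnj11, the pore of the ATP-sensitive channel, had 44.6 and 19.1 TPM (q = 0.172) and Kcnj12, at 44.1 TPM in sham, was 2.45-fold lower (q = 0.134) per the authors' deposited table. Kcnj14 and Kcnj5 were listed lower from 4.37 and 2.77 TPM per the authors' deposited table. The G protein-gated channel genes of neurons Kcnj3, Kcnj6 and Kcnj9 were not listed, nor were Kcnj10 and Kcnj16 of astrocytes.

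Sodium channel genes were few among the members, but both that were listed fell. Of 10 pore-forming genes, Scn1a had 9.46 TPM in sham and 2.73 in stroke (3.47-fold lower, q = 0.0220) per the authors' deposited table. Scn8a, the channel of nodes of Ranvier and axon initial segments, had 31.7 and 11.0 TPM (2.87-fold lower, q = 0.00900) per the authors' deposited table. None of the 4 beta subunit genes was listed.

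Calcium channels were represented mainly by auxiliary subunits. Cacna2d3, an alpha2delta subunit that brings channels to the membrane, fell from 27.4 to 9.17 TPM (q = 0.0264) per the authors' deposited table. Of the 10 pore-forming genes only Cacna1b, the N-type channel of presynaptic terminals, was listed, with 13.5 and 5.51 TPM (q = 0.129), per the authors' deposited table. The T-type genes Cacna1g, Cacna1h and Cacna1i, known for thalamic bursts, were not listed. Cacng8 and Cacng5 share a family with calcium channel subunits but encode auxiliary subunits of AMPA glutamate receptors, and they were listed at 50.2 and 34.0 TPM in sham and 21.3 and 13.1 in stroke (q = 0.0821 and q = 0.0916) per the authors' deposited table. Cacnb2 had 18.5 and 8.26 TPM (unadjusted p = 0.0199) per the authors' deposited table.

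Hcn3 had 21.8 TPM in sham and 10.5 in stroke (q = 0.103) per the authors' deposited table, the smallest change among lower members, and Hcn2 and Hcn4 were not listed. Exons of the neighbouring gene Pklr on the other strand overlap 17.1% of the exon bases of Hcn3, and how the authors' counting treated strand is not known here. Trpc1, a cation channel subunit, fell from 5.56 to 1.86 TPM (q = 0.000277) per the authors' deposited table. Trpv2 and Trpm2, TRP channels of phagocytes, were not listed.

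Calcium release channels of internal stores went in both directions. Itpr1, the inositol trisphosphate receptor typical of neurons, was listed lower at 22.9 TPM in sham and 10.4 in stroke (q = 0.175) per the authors' deposited table. Itpr2, the form typical of astrocytes, rose from 2.59 to 5.39 TPM (q = 9.03e-05), and Itpr3 rose from 1.31 to 3.31 TPM (q = 0.000155), per the authors' deposited table. In sham, Itpr1 stood at the highest of the 3 levels, and in stroke it still did, by a smaller margin. The other listed gene of the astrocyte channel list, Cacng5, was listed lower (q = 0.0916). The astrocyte markers listed higher, Gfap and Aqp4 of 5, went from 415.5 to 2522 TPM in sum per the authors' deposited table, and their part in the rise of Itpr2 was not tested. Most of that sum is Gfap, with 392.5 TPM in sham and 2453 in stroke, and Aldh1l1, Slc1a2 and Slc1a3 were not listed. Ryr1, Ryr2 and Ryr3 were not listed.

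Channel genes known from microglia, macrophages and lymphocytes were compared with those of neurons. The lists were written from general knowledge, but with earlier results of these data known. Of the members, 14 listed lower and 1 listed higher are in no cell list. How far the split between the lists follows from that choice was not tested. Of 9 immune cell genes, 5 were in the authors' deposited table for stroke against sham and all 5 rose, while of 73 neuronal genes 21 were listed, all of them lower, and 9 of these fell. The median log2 fold change of the listed genes was 2.66 for the immune cell list and -1.50 for the neuronal list per the authors' deposited table. Over all genes listed higher and lower the medians were 2.34 and -1.31. Of all genes listed higher 81.5% rose, and of all genes listed lower 43.8% fell, near the 42.9% of the neuronal list. Without genes that the lists mark as also used by other cells, 2 of the immune cell genes were left, Kcnn4 and Kcnk6, and 17 of the neuronal ones. These marks come from general knowledge, and expression of Kcnn4 and Kcnk6 in other cells, such as those of vessels, is not excluded. Kcnn4, the calcium-activated potassium channel of microglia and lymphocytes, rose 6.33-fold from 1.23 to 7.78 TPM (q = 5.61e-09) per the authors' deposited table. Kcnk6, a tandem-pore channel that lets potassium out of macrophages during inflammasome activation, rose 6.60-fold from 2.46 to 16.3 TPM (q = 2.36e-08) per the authors' deposited table. These 2 genes had the smallest q-values of all 46 members.

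The other immune cell members changed less or from lower levels. Kcnj2, the inward rectifier of microglia and also of vessels and neurons, rose 2.55-fold from 1.74 to 4.45 TPM (q = 0.00517) per the authors' deposited table. Itpr3, described above, also belongs to the immune cell list. Kcne3, an auxiliary subunit, had 0.0319 TPM in sham against 0.586 in stroke (q = 0.0340) per the authors' deposited table. A sham mean this close to 0 leaves the size of its 18.3-fold rise uncertain, and the same holds for Kcnj15, a member in no cell list, at 0.0280 and 0.199 TPM (q = 0.147) per the authors' deposited table. Kcna3, Kcnk13, Trpm2 and Trpv2 of the immune cell list were not listed. All 8 microglia markers were listed higher, from 251.1 TPM in sum in sham to 2070 in stroke, 824% of sham, while the 5 immune cell channel genes went from 6.77 to 32.4 TPM, 478%, per the authors' deposited table. Itgam enters the microglia sum under 2 gene identifiers, and the less abundant one, from 1.17 to 13.0 TPM, did not pass (q = 0.0536) per the authors' deposited table. Of 7 markers of infiltrating myeloid and lymphoid cells 4 were listed higher, from 5.27 to 13.4 TPM in sum, among them Ccr2 from 0.0714 to 1.86 TPM, per the authors' deposited table. The part of immune cell content in the rise of these channel genes was not tested.

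**Figure D2:**
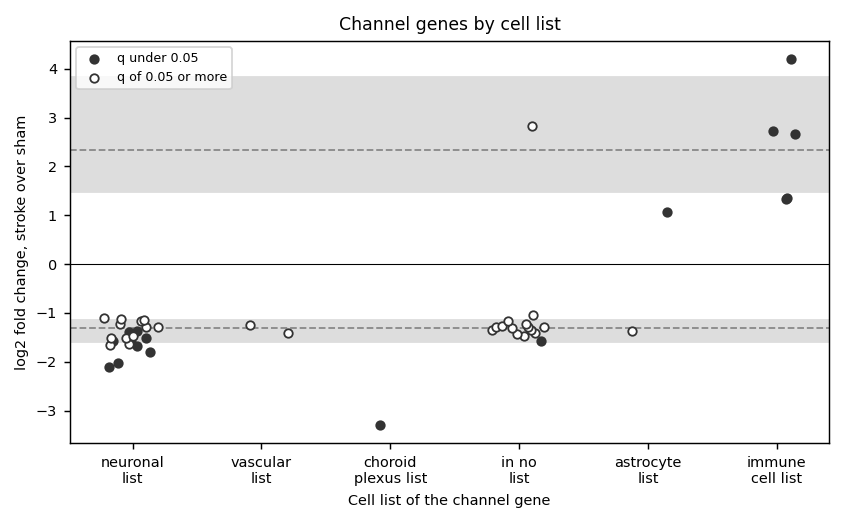
The log2 fold change of stroke over sham for each channel gene, by the cell list it belongs to; filled points have an authors' q-value under 0.05, grey bands span the interquartile range of all genes listed higher or lower, and dashed lines mark their medians, 2.34 and -1.31. The 21 neuronal genes lie between -1.11 and -2.12 and the 5 immune cell genes between 1.34 and 4.20, and Kcne2 lies lowest at -3.30.

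Kcne2 stood apart from the neuronal genes. It encodes a subunit of the potassium channels in the apical membrane of the choroid plexus, the epithelium that makes cerebrospinal fluid, and fell 9.84-fold from 12.1 to 1.23 TPM (q = 0.00826) per the authors' deposited table. Of 8 choroid plexus markers, Ttr, Clic6, Folr1, Kl, Otx2 and Sostdc1 were listed lower, from 4397 to 393.7 TPM in sum, 8.95% of sham, and the level of Kcne2 in stroke was 10.2% of sham per the authors' deposited table. That sum is nearly all Ttr, with 4317 TPM in sham and 371.7 in stroke, 11.6-fold lower. The others were lower by less than Kcne2, from 7.10-fold for Sostdc1 to 2.69-fold for Otx2, and Folr1 did not pass (q = 0.0972). The part of choroid plexus content in the fall of Kcne2 was not tested. The other genes of the choroid plexus channel list, Kcnq1, Trpm3 and Trpv4, were not listed. From the vascular list, Kcne4 was listed lower (3.48 to 1.31 TPM, q = 0.0810) per the authors' deposited table. Of 5 mural cell markers, Acta2, Cspg4 and Pdgfrb rose, from 52.3 to 143.0 TPM in sum, while Myh11 and Rgs5 were not listed.

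Other ion channel genes, outside the symbols used to choose the members, showed both directions as well. Of 46 in a list of such genes, 8 rose and 5 were listed lower, 3 of which fell, per the authors' deposited table. The share listed higher, 61.5%, was close to the 60.6% of all listed genes. The genes that rose included Hvcn1, the proton channel of phagocytes, from 3.57 to 39.0 TPM (q = 2.08e-14), and the ATP-gated channel genes P2rx4, from 16.5 to 64.3 TPM, and P2rx7, from 3.20 to 15.7 TPM, per the authors' deposited table. Clic1, Mcoln2, Mcoln3, Piezo1 and Tpcn2 rose too. Fgf13 and Fgf12, whose proteins bind sodium channels, fell 2.89-fold from 48.2 TPM and 2.58-fold from 30.9 TPM (q = 0.00931 and q = 0.00923) per the authors' deposited table. Unc80 fell, while its partner Nalcn, the sodium leak channel, was listed lower from 8.59 to 3.32 TPM (q = 0.0548) per the authors' deposited table.

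Few channel genes were listed for mmpp against stroke, the comparison that asks what differed with the third condition. In the authors' deposited table, 6 channel genes were listed, 4 higher and 2 lower in mmpp, and 25.9% of all 1021 genes listed for this comparison were higher. The q-value of none of the 6 was under 0.05, their unadjusted p-values were all under 0.05, and 0.784% of the listed genes passed per the authors' deposited table. Of the 19616 genes adjusted, 4.83% were listed with a q-value below 1, and 74 more were listed with a q of 1. Both comparisons use the same stroke samples, so a chance deviation there moves a gene in opposite directions in the 2 tables, and all values are therefore given side by side without a test of their relation.

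The 4 genes listed higher in mmpp were all of the neuronal list. Kcnip4 had 33.7 TPM in sham against 7.78 in stroke and 31.0 in mmpp per the authors' deposited table (mmpp against stroke 3.99-fold, q = 0.606). Kcnd2, its channel partner, had 11.5, 3.60 and 9.48 TPM (2.64-fold, q = 0.730) per the authors' deposited table. Kcnab1 had 20.6, 5.09 and 12.6 TPM (2.47-fold, q = 0.771) per the authors' deposited table. For these 3 genes the mmpp mean lay between those of stroke and sham, nearest to sham for Kcnip4. Kcnb2, a delayed rectifier gene of low level, had 0.728, 0.233 and 0.533 TPM (2.29-fold, q = 0.551) per the authors' deposited table.

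The 2 genes listed lower in mmpp were Kcnn4 and Kcnk6, both of the immune cell list. Kcnn4 had 1.23 TPM in sham against 7.78 in stroke and 3.48 in mmpp (2.24-fold below stroke, q = 0.823), and Kcnk6 had 2.46, 16.3 and 7.72 TPM (2.11-fold below stroke, q = 0.816), per the authors' deposited table. Their mmpp means lay above sham, at 283% and 314% of it, and below stroke. Mean levels in mmpp of the other 40 members were not analysed here. Beside these values, 2 of 8 microglia markers, Itgam and Sall1, were listed lower in mmpp. Of 6 relay neuron markers, 2 were listed higher in mmpp. Slc17a6 had 20.7 TPM in stroke and 55.3 in mmpp (q = 0.772) per the authors' deposited table. Gbx2 had 11.1 and 23.5 TPM (q = 0.726) per the authors' deposited table. None of the 6 general neuron markers was listed for mmpp against stroke. Kcnd2 is also expressed by cerebellar granule cells, and of 10 cerebellar markers 5 were listed higher in mmpp, Cbln3, Fat2, Gabra6, Neurod1 and Pcp2. The part of these cell contents in the values of mmpp was not tested.

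**Figure D3:**
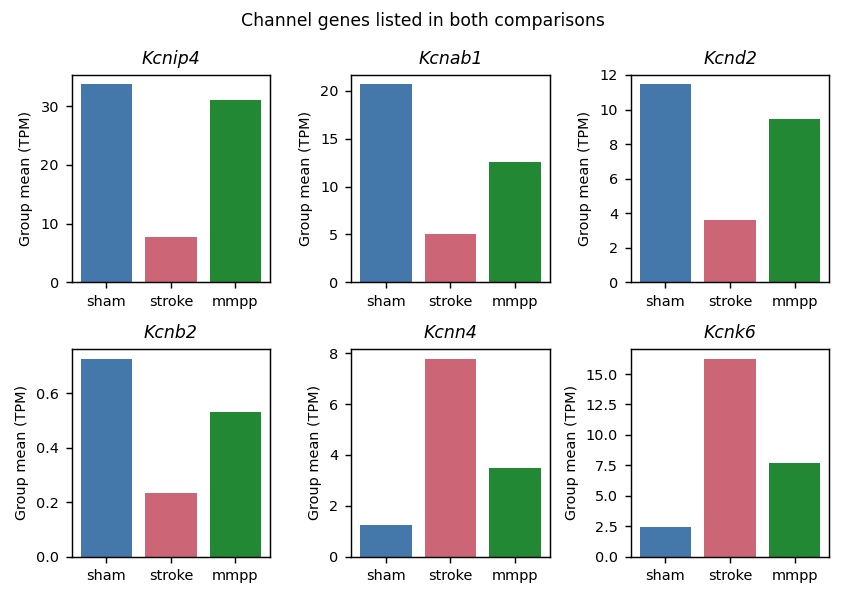
Group means in TPM of the 6 channel genes listed in both comparisons, with bars from 0 and no error bars because the tables give none. Kcnip4, Kcnab1, Kcnd2 and Kcnb2 have their lowest bar in stroke, and Kcnn4 and Kcnk6 their highest.

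The promoter sequences of the genes that passed the q limit for stroke against sham and were also listed for mmpp are shown, since the comparison of the 3 groups turns on them. They are RefSeq windows on GRCm38.p6 from 250 bases before to 50 after a gene's start, and capitals mark CpG dinucleotides. Where several starts are given for a gene, the most upstream one was used. Kcnk6 is named only.
Kcnip4 promoter (chr5:49285610-49285909, minus strand): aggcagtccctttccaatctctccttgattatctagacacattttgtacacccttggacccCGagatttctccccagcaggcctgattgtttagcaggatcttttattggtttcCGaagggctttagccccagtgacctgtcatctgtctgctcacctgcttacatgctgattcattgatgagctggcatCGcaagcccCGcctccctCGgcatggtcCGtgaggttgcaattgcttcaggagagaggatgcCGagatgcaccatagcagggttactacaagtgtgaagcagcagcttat
Kcnab1 promoter (chr3:64948962-64949261, plus strand): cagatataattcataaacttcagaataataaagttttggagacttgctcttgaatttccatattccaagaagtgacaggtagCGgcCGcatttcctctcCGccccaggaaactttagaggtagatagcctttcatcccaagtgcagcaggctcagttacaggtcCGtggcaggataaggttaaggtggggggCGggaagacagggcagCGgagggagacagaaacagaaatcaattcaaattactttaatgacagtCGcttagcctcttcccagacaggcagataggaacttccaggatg
Kcnd2 promoter (chr6:21215096-21215395, plus strand): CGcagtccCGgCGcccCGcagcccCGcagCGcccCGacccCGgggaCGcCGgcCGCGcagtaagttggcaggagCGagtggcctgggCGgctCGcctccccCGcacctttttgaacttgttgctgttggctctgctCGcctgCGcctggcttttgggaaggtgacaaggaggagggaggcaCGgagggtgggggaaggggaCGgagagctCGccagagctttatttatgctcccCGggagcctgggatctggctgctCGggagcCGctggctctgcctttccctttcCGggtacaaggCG
Kcnn4 promoter (chr7:24370013-24370312, plus strand): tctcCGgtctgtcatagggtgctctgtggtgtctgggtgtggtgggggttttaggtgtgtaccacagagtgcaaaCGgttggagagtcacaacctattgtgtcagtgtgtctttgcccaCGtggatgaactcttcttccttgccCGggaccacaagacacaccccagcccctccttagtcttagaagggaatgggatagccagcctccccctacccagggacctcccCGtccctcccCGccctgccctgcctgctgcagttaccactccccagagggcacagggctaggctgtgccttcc
Kcnd2 held 26 CpG dinucleotides in its 300 bases, while Kcnip4 and Kcnab1 held 7 each and Kcnn4 held 6, so genes that were lower in stroke are found with and without a CpG-rich start.

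Across all members, 34 of 46 had a promoter window, 10 of them more than 1. The 28 lower members had a median of 18.5 CpG dinucleotides, from 2 to 41, and the 6 higher members a median of 12, from 2 to 30. The median over 17486 protein-coding genes was 13, and the range of the higher members lay within that of the lower ones. The median G and C content was 63.2% in both. Motifs were searched in the same 1 window per gene. The PU.1 core GAGGAAG, searched on both strands for the myeloid transcription factor, was in the windows of Kcnj2, Kcnk1 and Kcnk12, 1 of 6 higher and 2 of 28 lower members, and in 13.5% of windows of protein-coding genes. The left arm TTCAGCACC of the neuronal repressor element RE1 was in that of Kcnh6 alone, and in 0.395% of windows of protein-coding genes. TATAAA, the TATA box, was likewise searched on both strands and was in that of Kcnj15 alone (13.3% of protein-coding genes), and TGACGTCA, the cAMP response element, was in none (2.34%). With all starts of the 10 members counted, Kcnab1 also held the PU.1 core and TATAAA, and no other member was added.

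**Figure D4:**
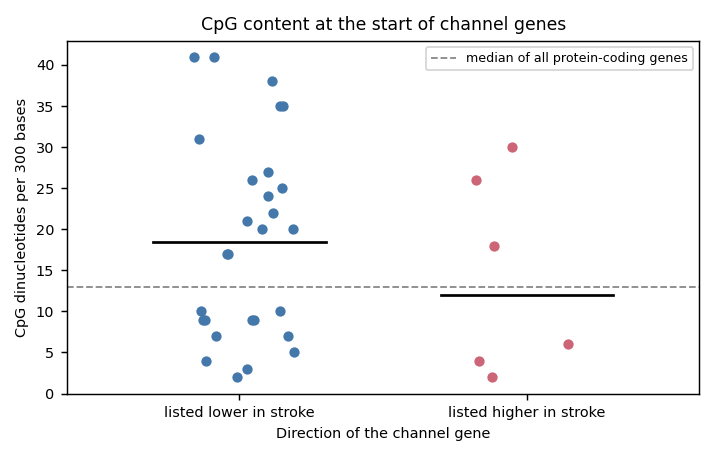
CpG dinucleotides in the 300-base window at the start of 28 channel genes listed lower and 6 listed higher in stroke, with 1 point per gene, black lines at the medians of 18.5 and 12, and a dashed line at 13 for all protein-coding genes. The points of both groups spread over most of the same range.

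Gene length was described as well. The 39 lower members spanned a median of 60.9 kb in the GENCODE annotation, from 3.27 kb for Kcne4 to 1135 kb for Kcnip4, and all genes listed lower spanned a median of 20.4 kb. The 7 higher members had a median of 16.4 kb, from 8.37 kb for Kcne3 to 393.9 kb for Itpr2, and all genes listed higher one of 16.3 kb. Long genes such as Kcnip4, Cacna2d3 (816.9 kb) and Kcnd2 (514.3 kb) were among those that fell, as were short ones such as Kcne2 (5.74 kb) and Kcna2 (13.9 kb).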

How the data were processed

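Per the labels' protocols, RNA was isolated with TRIzol reagent and made into libraries with a SMARTER mRNA kit. The submitters' processing notes name HTSeq 0.6.0, TopHat2 2.0.12, Bowtie2 2.2.3 and GRCm39, and do not say what each was used for, and the test program and strand setting are not given in the sources used here. Per the file headers, the authors deposited for each gene the group mean TPM, the log2 fold change, and p-value and q-value of their test, and only genes with a p-value under 0.05 are listed. The deposited log2 fold change equals the log2 ratio of the deposited means (largest difference 5.35e-11), and the stroke means were identical in both tables. Depth and errors are unknown, and no test of a comparison was run here.

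Members were matched by symbol in Python 3.11.15 with pandas 2.3.3. The members and lists were chosen with earlier results of these data known. The number of genes adjusted was the whole number that made most ranks whole (tolerance 0.001) under the Benjamini-Hochberg formula, and was recovered in 20 of 20 simulated tables. Apart from some genes not reported here, all members past the q limit, in both tables or in a list of non-neuronal cells were named, with the most abundant of each family; others were named after their values were seen. Exon overlaps and gene spans came from GENCODE M21 on GRCm38 by identifier, without coordinates, and promoters from RefSeq. The design foresaw a refit only if values per library were present. Alternatives were a q-value of 0.01 or 0.1, a p-value of 0.01 and a minimum of 1 TPM. Further ones were pseudocounts of 0.1 and 1 TPM, removal of the shift and narrower lists. Removal of members overlapped over more than 10% of their exon bases was added after the data were seen.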

Additional observations from a re-analysis of the deposited data

How the results depend on the processing

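At a p-value under 0.01, 11 members were listed lower after stroke and 6 higher, and for mmpp against stroke 1 was higher and 0 lower. At a q-value under 0.01, 6 lower members passed after stroke, and under 0.1, 24. The shift of -0.28, to which genes listed lower contribute, was taken out and the fold limit applied again. This left 29 of the 39 lower and all 7 higher members. The median log2 fold change of lower members was -1.34 with a pseudocount of 0.1 TPM and -1.17 with 1 TPM. The narrower immune cell list held 2 listed genes in place of 5. Exons of 15 members overlapped those of another gene. Leaving out members overlapped over more than 10% of their exon bases removed Hcn3 only. For mmpp against stroke no member passed a q-value of 0.05 or 0.1 in the authors' deposited table. No paired analysis was possible because the tables give group means, and for the same reason no replicate could be left out and no count test or low-count filter could be run. Depth is unknown, so members near 0 TPM, Kcne3 and Kcnj15 in sham, are the least certain.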
